A study of Mus musculus with 15 samples.

Results

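Cybb, Ncf4, Nos2 and Ptgs2 encode enzymes, or a subunit of one, that make oxygen radicals, nitric oxide and prostaglandins in activated phagocytes. They were chosen by name among the endogenous probes of the panel, with earlier results of these data known, and are 4 of 547 genes measured. All 4 were found and all 4 were among the 359 genes tested, those above background in at least 3 samples. Background was taken as the mean plus 2 SD of a sample's 8 negative-control probes, and Cybb was below it in 1 sham sample, while the other genes were above it in all 15 samples.

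RNA came from cells of the brain sorted as CD11b high and CD45 low to intermediate, the gate used for microglia, and was measured by nCounter, an assay in which a barcoded probe binds each mRNA molecule and is then counted without amplification. The cells were from male C57BL6J mice, for which the methods and the results text of the study give different ages, with sham surgery (4 samples) or at 2 dpi (4 samples), 14 dpi (4 samples) and 60 dpi (3 samples), that is, days after controlled cortical impact, a focal contusion of the parieto-temporal cortex. By the methods the sham mice were shams of the 2-day time point, and mice of the 14 and 60 dpi groups were not randomized, so that neither later time point has a sham matched in time since surgery. The labels tie no sample to a mouse, and the p-values below measure the spread between these samples. The sort does not separate microglia from other cells that pass the same gate, and in such bulk RNA fewer cells of a type and less RNA per cell cannot be told apart.

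Microglia can carry all 3 enzyme systems. Cybb encodes gp91phox, the catalytic subunit of the phagocyte NADPH oxidase, which moves electrons across the membrane to make superoxide, and Ncf4 encodes p40phox, a cytosolic subunit that helps to assemble the oxidase at phagosomes. Nos2, the inducible nitric oxide synthase, makes nitric oxide from arginine and is little transcribed until cytokines or bacterial products induce it in macrophages. Ptgs2, the inducible cyclooxygenase, carries out the committed step of prostaglandin synthesis and is an early response gene of inflamed tissue.

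On the mouse assembly GRCm38.p6, in the RefSeq annotation, Cybb lies on chromosome X from 9435252 to 9487766, Ncf4 on chromosome 15 from 78244164 to 78262582, Nos2 on chromosome 11 from 78920787 to 78960226, and Ptgs2 on chromosome 1 from 150100031 to 150108234. The transcript accession given for each probe was found under the same gene there. Promoters were found for 2 of the 4 genes, Cybb and Ptgs2. Both are shown. These 2 genes, of the 4, also had the largest changes against sham, at different times. Each promoter window runs from 250 bases before the annotated start to 50 after it, on the strand of the gene, with matches to the motifs searched in capitals. The Ptgs2 window is chr1:150099781-150100080 on the plus strand, and the Cybb window is chrX:9469275-9469574 on the minus strand. The annotated start used for Cybb lies inside the bounds of the gene given above and not at their outer end.
Ptgs2: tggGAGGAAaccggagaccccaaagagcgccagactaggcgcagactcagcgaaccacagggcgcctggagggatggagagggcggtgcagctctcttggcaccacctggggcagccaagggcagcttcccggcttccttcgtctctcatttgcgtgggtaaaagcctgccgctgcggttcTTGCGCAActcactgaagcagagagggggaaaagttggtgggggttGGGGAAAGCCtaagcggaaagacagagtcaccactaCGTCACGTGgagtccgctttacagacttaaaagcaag
Cybb: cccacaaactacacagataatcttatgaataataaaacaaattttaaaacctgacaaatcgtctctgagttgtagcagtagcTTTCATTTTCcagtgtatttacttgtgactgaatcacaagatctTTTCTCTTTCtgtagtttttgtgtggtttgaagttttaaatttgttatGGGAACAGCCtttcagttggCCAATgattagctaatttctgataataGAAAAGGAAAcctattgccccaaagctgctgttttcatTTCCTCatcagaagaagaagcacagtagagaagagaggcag

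The motifs were searched on both strands, as letters only, where N is any base. In Ptgs2 a match to TTNNGCAA, a form of the C/EBP element, stood at -69 to -62, read on both strands, and such a match was present in 10.8% of 32851 promoter windows of this length. A cyclic AMP response half-site, TGACG on the minus strand, lay at 14 to 18 and overlapped the first bases of the match with an E-box, CACGTG, at 17 to 22 (20.8% and 7.15% of windows). In Cybb the interferon-stimulated response element was matched at 3 places, -168 to -159 and -124 to -115 on the minus strand and -29 to -20 on the plus strand, where 3.44% of windows had any match. Cybb also had a CCAAT box at -56 to -52 (37.4% of windows). The core of the PU.1 site, GAGGAA (28.3%), was matched once in each, at -247 to -242 in Ptgs2 and on the minus strand at 10 to 15 in Cybb. The NF-κB pattern (50.8%) was also matched once in each, at -23 to -14 in Ptgs2 and at -76 to -67 in Cybb. The interferon-γ activated site TTCNNNGAA (8.3%) and the TATA box TATAAA (13.6%) had no match in either window.

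Before the results, 3 features of the samples bear on them. The 12 sham, 2 dpi and 14 dpi samples were 1 run and the 60 dpi samples another, so that run and time point cannot be told apart at 60 dpi. At 60 dpi the background limit lay between 57.1 and 67.7 counts, against 25.0 to 34 in the other groups, and a single negative control, NEG_B, gave 50 to 72 counts there, against 7 to 12. Raw counts were scaled by a factor from the positive controls and 14 housekeeping genes, which ran from 0.511 to 1.87 over samples, and the values given below as normalized counts are raw counts divided by it. The total over endogenous genes was between 169784 and 226892 raw counts for 60 dpi samples and between 66905 and 280528 for the others. Finally, the neutrophil markers S100a8, S100a9 and Camp were high in some samples, as given beside Cybb.

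The 4 genes followed 4 courses after injury. Cybb rose at 14 dpi and more at 60 dpi, Ptgs2 rose at 2 and 14 dpi and at 60 dpi was 0.87-fold of sham (adjusted p = 0.613), Ncf4 fell at 2 dpi under some scalings, and Nos2 rose at 60 dpi alone, in the samples of the second run. Of the 4 genes, 2 were called at 2 dpi against sham (Ptgs2 higher, Ncf4 lower), 2 at 14 dpi (Cybb and Ptgs2 higher) and 2 at 60 dpi (Cybb and Nos2 higher), by edgeR's quasi-likelihood test with Benjamini-Hochberg adjustment over the 359 genes at 0.05. The shares of all tested genes called were 35.4%, 25.6% and 36.5% in these comparisons, so that 2 of 4 is not far above the panel. Higher calls made up 7.24% of tested genes at 2 dpi, 21.4% at 14 dpi and 25.3% at 60 dpi, and lower calls 28.1%, 4.18% and 11.1%. Samples of the groups compared did not overlap for 2 of the 4 genes at 2 dpi (Ptgs2 and Ncf4), 3 at 14 dpi (Cybb, Ptgs2 and Ncf4) and 2 at 60 dpi (Cybb and Nos2), beside 28.4%, 20.9% and 34.8% of tested genes. The plot of normalized counts by sample shows each value.

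**Figure D1:**
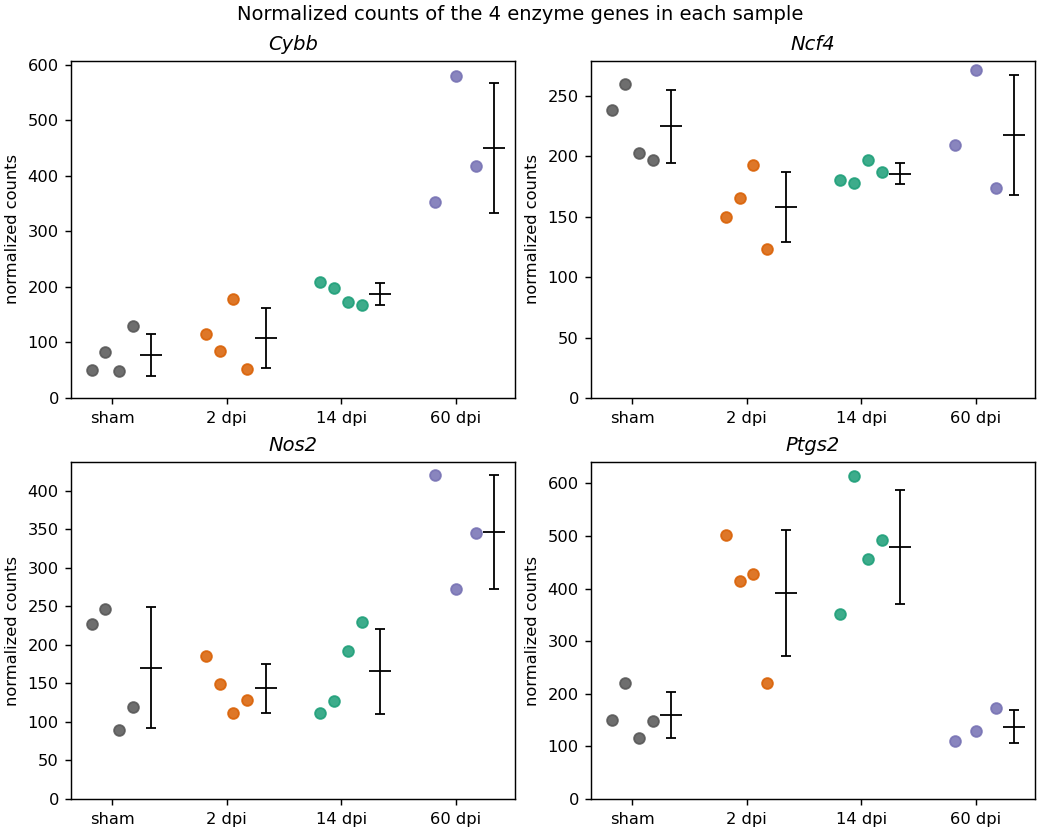
Normalized counts (vertical axis, linear, from 0) of Cybb, Ncf4, Nos2 and Ptgs2 in each sample of sham, 2 dpi, 14 dpi and 60 dpi (horizontal axis), with the mean and SD beside the points of each group (n = 4, 4, 4 and 3). Cybb was highest in the 3 samples at 60 dpi, 352 to 579, and Ptgs2 was at 221 to 615 at 2 and 14 dpi and at 110 to 173 at 60 dpi.

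Cybb, the catalytic subunit of the oxidase, was higher than in sham at 14 and 60 dpi, and higher at 60 than at 14 dpi. It was at 50.9, 82.6, 47.6 and 129 normalized counts in sham samples 1 to 4, at 115, 83.6, 179 and 52.4 at 2 dpi, at 209, 197, 173 and 167 at 14 dpi and at 352, 579 and 417 at 60 dpi. Sham and 2 dpi overlapped, all 14 dpi samples lay above all sham samples, and all 60 dpi samples lay above every other sample. The spread also differed between groups, the 14 dpi samples lying within an SD of 19.7 (n = 4), against 53.9 at 2 dpi (n = 4).

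At 60 dpi Cybb averaged 450 ± 117 normalized counts (SD, n = 3), against 77.5 ± 37.6 in sham (SD, n = 4), a 5.73-fold difference (log2 fold change 2.52, standard error 0.37, adjusted p = 0.000128 in edgeR). Only 8 of the 359 tested genes had a larger rise in that comparison. At 14 dpi it averaged 186 ± 19.7 (SD, n = 4), 2.38-fold above sham (log2 fold change 1.25, standard error 0.36, adjusted p = 0.0174 in edgeR). This call was lost with TMM factors (1.04, adjusted p = 0.0707), with positive-control factors alone (1.09, 0.158) and without sham sample 3 (1.05, 0.0514). At 2 dpi the mean was 107 ± 53.9 (SD, n = 4), and the log2 fold change against sham of 0.46 (standard error 0.36, 95% interval -0.24 to 1.16) had an adjusted p of 0.315 in edgeR.

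Between the later time points, Cybb was 2.40-fold higher at 60 dpi than at 14 dpi (log2 fold change 1.27, standard error 0.36, adjusted p = 0.0102 in edgeR) and 4.17-fold higher than at 2 dpi (2.06, standard error 0.36, adjusted p = 0.000401). With positive-control factors alone the first of these differences was 1.15 and was not called (adjusted p = 0.0655). Between 14 and 2 dpi the log2 difference was 0.79 (standard error 0.34, adjusted p = 0.0758). Without 2 dpi sample 3, the highest of its group, that difference was 1.18 and passed (adjusted p = 0.0125). Thus sham and 2 dpi, and 2 and 14 dpi, were the neighbors in the order of Cybb levels that did not differ beyond the test's threshold.

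In 3 of the 4 groups the sample with the highest Cybb was also the sample with the most counts of neutrophil markers. At 14 dpi it was the sample with the fewest. Summed over the 7 tested markers of 9 on the panel, these were 1183 to 9162 normalized counts in sham, 1098 to 10078 at 2 dpi, 1399 to 2205 at 14 dpi and 9461 to 40124 at 60 dpi. The high samples were sham sample 4, 2 dpi sample 3 and, at 60 dpi, sample 2. S100a8 and S100a9, the calprotectin genes, led the list in these 3 samples, at 19855 and 16023 normalized counts in 60 dpi sample 2. Of these markers, Ltf was called higher at 60 dpi against sham, and S100a8 and S100a9 were not. Cxcr1 and Cxcr2, also on the marker list, were not above background in any sample at 60 dpi or in sham. Cxcr1 was above it in 2 dpi sample 1 and 14 dpi sample 2, and Cxcr2 in 2 dpi sample 3. At 60 dpi, where the limit was 57.1 to 67.7 counts, Cxcr2 read 18, 42 and 24 raw counts in samples 1 to 3. At 14 dpi the marker sums were 1399, 1451, 1995 and 2205 in samples 1 to 4, the reverse of their order in Cybb. Those of samples 3 and 4 lay above those of sham samples 1 to 3 (1183 to 1611) and below that of sham sample 4. With the 3 high samples left out, the log2 fold change of Cybb against sham was 2.69 at 60 dpi (adjusted p = 1.23e-05 in edgeR) and 1.65 at 14 dpi (adjusted p = 0.000681), and that of 14 against 2 dpi was 1.18 (adjusted p = 0.00365). The 60 dpi samples kept still had marker sums of 9461 and 11436, against 1183 to 1611 in the sham samples kept, so that the groups stayed unequal in these markers. The samples left out were also those with the highest Cybb of sham and 2 dpi, which by itself lowers the level of these groups. Of 7 monocyte markers, 5 were higher than in sham at 2 dpi, 1 at 14 dpi and 6 at 60 dpi, and none was lower. Their sums were 552 to 759 normalized counts in sham, 1277 to 1634 at 2 dpi, 642 to 1086 at 14 dpi and 1031 to 1606 at 60 dpi. The 4 tested endothelial markers were all higher at 60 dpi (473 to 1227 against 210 to 330), where 25.3% of tested genes were higher. So were the 2 tested markers of T and NK cells, Cd3d and Klrk1 (159 to 233 against 31.0 to 106). The part of these cells in the Cybb level was not tested.

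The microglial markers of the panel were present throughout. All 9, among them Cx3cr1, Csf1r and Itgam, were above background in every sample, and their sum ran from 20280 to 29592 normalized counts in sham, 14942 to 19655 at 2 dpi, 22981 to 25997 at 14 dpi and 19745 to 26721 at 60 dpi. Of these markers, 6 fell and none rose at 2 dpi, where 28.1% of tested genes fell. At 14 dpi Tyrobp rose and none fell, and at 60 dpi Tyrobp rose and Cx3cr1 and Irf8 fell. Of all tested genes, 21.4% rose and 4.18% fell at 14 dpi, and 25.3% rose and 11.1% fell at 60 dpi. Of the 14 T and NK cell markers on the panel, Cd3e and Cd8a were not above background in any sample, whereas Cd3d rose at 60 dpi (log2 fold change 1.94, adjusted p = 0.000201 in edgeR). Of the 8 B cell markers, Ms4a1 and Cd79a were not above background in any sample, and of the 2 tested, Cd79b and Blnk, Blnk fell at 2 dpi (-0.72, adjusted p = 0.01).

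The genes whose log2 normalized counts followed Cybb most closely over the 15 samples were C3, the central complement component (Pearson r = 0.86), Cd74, the invariant chain of class II molecules (0.86), and H2-Ab1, a class II β chain (0.85). Over the 12 samples of the first run alone the values were 0.85, 0.65 and 0.63. These are descriptions over samples that share scaling factors and, at 60 dpi, a run.

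Ncf4, the p40phox subunit, changed little and did not follow Cybb. It was at 239, 260.4, 203 and 197 normalized counts in sham samples 1 to 4, at 150.1, 165, 193 and 123 at 2 dpi, at 180.1, 178, 197 and 188 at 14 dpi and at 209, 272 and 174 at 60 dpi. All 2 dpi samples lay below all sham samples, and so, narrowly, did all 14 dpi samples, since the highest of these and the lowest sham sample were both at 197. The 60 dpi samples overlapped every other group.

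At 2 dpi Ncf4 averaged 158 ± 29.0 normalized counts (SD, n = 4), against 225 ± 30.0 in sham (SD, n = 4), 0.71-fold of sham (log2 fold change -0.50, standard error 0.16, adjusted p = 0.0234 in edgeR). The median of all tested genes was itself -0.30 in that comparison and -0.04 with TMM factors, and relative to this median Ncf4 was at -0.20. With TMM factors the change of Ncf4 was -0.24 (adjusted p = 0.30), which was not called, and the same held when DESeq2 estimated the size factors (-0.20, 0.479) and when the positive controls alone set the scale (-0.25, 0.907). It was also not called without sham sample 1 or 2 or without 2 dpi sample 1 or 4 (adjusted p up to 0.0787).

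At 14 dpi the log2 fold change of Ncf4 against sham was -0.27 (standard error 0.16, adjusted p = 0.252 in edgeR), and here TMM factors (-0.45, adjusted p = 0.0334) and DESeq2's own size factors (-0.44, 0.045) made the call. At 60 dpi the log2 fold change was -0.04 (standard error 0.17, 95% interval -0.38 to 0.31, adjusted p = 0.908). Against 2 dpi Ncf4 was 1.38-fold higher at 60 dpi (log2 fold change 0.46, standard error 0.17, adjusted p = 0.0305), the value of the panel's median in that comparison being 0.49, and this call was lost with TMM factors (0.08, adjusted p = 0.703). It was lost as well without 2 dpi sample 1 or 4 or 60 dpi sample 1 or 2 (adjusted p up to 0.225). Between 14 and 2 dpi the log2 difference was 0.23 (adjusted p = 0.276), and between 60 and 14 dpi it was 0.23 (adjusted p = 0.292).

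Over the 15 samples Cybb and Ncf4 had a Pearson correlation of 0.24, and over the 12 samples of the first run of -0.02, given as descriptions. The genes most like Ncf4 were Tnfrsf14, a TNF family receptor (r = 0.74), and Ikzf2, a zinc finger transcription factor (0.73). In 2 dpi sample 3 and 60 dpi sample 2, the samples of these groups with the most neutrophil marker counts, Ncf4 was the highest of its group, whereas in sham sample 4 it was the lowest.

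Of the other genes of the oxidase listed for comparison, Prkcd, the kinase that phosphorylates cytosolic subunits of the oxidase, was the only one tested. Prkcd averaged 642 ± 94.0 normalized counts at 2 dpi, against 1082 ± 257 in sham (SD, n = 4 each; log2 fold change -0.75, standard error 0.18, adjusted p = 0.00409 in edgeR). It was at 1075 ± 95.3 at 14 dpi (SD, n = 4) and 947 ± 167 at 60 dpi (SD, n = 3), with no call against sham at either time. Nox1 and Nox4 were on the panel and did not reach the background filter.

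Nos2 stood apart from the other 3 genes in its raw counts, which hardly followed the amount of RNA in a sample. In the first run they were 116, 158, 167 and 162 in sham samples 1 to 4, 152, 154, 179 and 164 at 2 dpi and 161, 131, 118 and 136 at 14 dpi. The highest was 1.54 times the lowest, while the scaling factors of the same 12 samples differed by 3.66 times. In the second run, at 60 dpi, the raw counts were 394, 333 and 388. They thus formed a narrow band in each run, and the bands did not overlap.

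The slope of the log2 raw count on the log2 scaling factor, taken within groups over the first run, measures this. A count in proportion to RNA has a slope of 1. The slope was 1.15 for Cybb, 0.89 for Ncf4, 0.71 for Ptgs2 and 0.22 for Nos2, with a median of 0.86 over the 359 tested genes and 0.95 over the housekeeping genes. For the 8 negative controls it was between -0.17 and 0.19. Of 195 tested genes with a mean of at least 100 raw counts in the first run, Cd44 was the only other gene with a slope as low as that of Nos2, and the median was 0.97. Among all 359 tested genes, dimmer ones included, the slope of Nos2 ranked 28th from the lowest. These are descriptions of the probes, with no test.

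**Figure D2:**
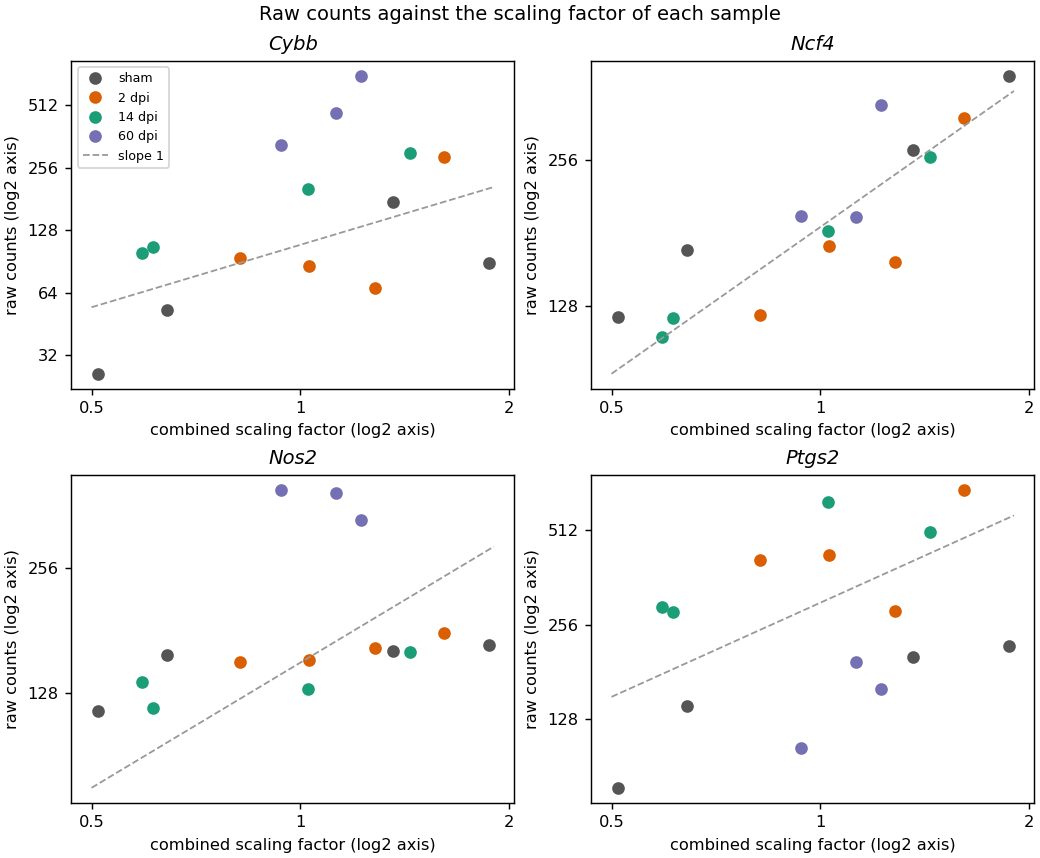
Raw counts of Cybb, Ncf4, Nos2 and Ptgs2 (vertical axis, log2 scale) against the combined scaling factor of each sample (horizontal axis, log2 scale), colored by group, with a dashed line of slope 1 through the mean of the first run. Nos2 raw counts stayed between 116 and 179 in the first run while the factor ran from 0.511 to 1.87, and were 333 to 394 in the 60 dpi samples of the second run.

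Divided by the scaling factors, Nos2 was at 227, 246, 89.3 and 119 normalized counts in sham samples 1 to 4, at 185, 149.7, 111 and 128 at 2 dpi, at 112, 128, 192 and 229.7 at 14 dpi and at 420.3, 272 and 345 at 60 dpi. The 60 dpi samples lay above all others, and the other groups overlapped. At 60 dpi Nos2 averaged 346 ± 73.9 normalized counts (SD, n = 3), against 170.5 ± 77.9 in sham (SD, n = 4), a 2.08-fold difference (log2 fold change 1.06, standard error 0.33, adjusted p = 0.0217 in edgeR). The difference was 1.08 on the log2 scale against 14 dpi (standard error 0.33, adjusted p = 0.0145) and 1.27 against 2 dpi (standard error 0.33, adjusted p = 0.0047). The difference against 14 dpi was not called without 60 dpi sample 1 (0.92, adjusted p = 0.0646), and with positive-control factors alone neither the difference against 14 dpi nor that against 2 dpi was (adjusted p = 0.0937 and 0.241). At 2 and 14 dpi the log2 fold changes against sham were -0.22 (95% interval -0.83 to 0.39) and -0.03 (-0.65 to 0.59), with adjusted p = 0.608 and 0.965.

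The call at 60 dpi against sham was lost without sham sample 4, 60 dpi sample 1 or 60 dpi sample 3 (adjusted p up to 0.0811), with the 3 samples high in neutrophil markers left out (log2 fold change 1.06, adjusted p = 0.054) and with positive-control factors alone (1.01, 0.136). The negative controls were also higher in the second run. Their mean was 1.91 times that of the first run, and 1.47 times without NEG_B, beside 2.48 times for the raw counts of Nos2. Divided by the background limit of its own sample, the raw count of Nos2 was 4.43 to 6.21 in sham, 5.41 to 6.04 at 2 dpi, 4.36 to 6.24 at 14 dpi and 5.73 to 6.36 at 60 dpi, and these ranges overlapped. With NEG_B left out of the limit it was 6.97 to 9.78 at 60 dpi and 4.26 to 5.91 in sham, which did not overlap. When each sample was scaled by its negative-control mean, a choice made after the data were seen, the log2 fold change at 60 dpi against sham was 0.44 (adjusted p = 0.449 in edgeR). The run and the time point cannot be told apart for this gene.

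The genes most like Nos2 were the chemokines Ccl22 and Cxcl11 (Pearson r = 0.96 for both) and the cytokine gene Il13 (0.95), closer than any gene was to the other 3 enzymes. In the first run these values were 0.91, 0.90 and 0.94. Raw counts of Ccl22 were 141 to 159 in the second run and 33 to 57 in the first, those of Il13 266 to 328 and 54 to 94, and those of Cxcl11 72 to 90 and 17 to 32. Their slopes on the scaling factor were 0.12, 0.32 and 0.15. Thus each of these probes also read a narrow band in each run. Such counts, divided by the same scaling factors, correlate through the factors and the step between runs. The r values therefore cannot show that these genes share a course. Cxcl11 was above background in 4 of 15 samples, whereas Nos2, Ccl22 and Il13 were above it in all 15. No other gene of the nitric oxide and arginine list was on the panel.

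Ptgs2, the inducible cyclooxygenase, was high at 2 and 14 dpi and low at 60 dpi. It was at 151, 219.8, 117 and 149 normalized counts in sham samples 1 to 4, at 501, 414, 427 and 221 at 2 dpi, at 352, 615, 456 and 493 at 14 dpi and at 109.9, 130.1 and 173 at 60 dpi. All samples at 2 and 14 dpi lay above all sham samples, although 2 dpi sample 4, at 221, exceeded sham sample 2 by little. All 60 dpi samples lay below all of those at 2 and 14 dpi and overlapped with sham.

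At 14 dpi Ptgs2 averaged 479 ± 109 normalized counts (SD, n = 4), against 159 ± 43.5 in sham (SD, n = 4), a 3.04-fold difference (log2 fold change 1.60, standard error 0.25, adjusted p = 0.000126 in edgeR). At 2 dpi it averaged 391 ± 119.6 (SD, n = 4), 2.48-fold above sham (log2 fold change 1.31, standard error 0.25, adjusted p = 0.0016), the 10th largest rise of the 359 genes where the panel's median fell by 0.30. The difference between 14 and 2 dpi, 0.29 on the log2 scale (standard error 0.24, 95% interval -0.18 to 0.76), did not pass (adjusted p = 0.34) and changed sign with TMM factors (-0.14) and with positive-control factors alone (-0.06).

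At 60 dpi Ptgs2 averaged 138 ± 32.0 normalized counts (SD, n = 3). This was 0.29-fold of the level at 14 dpi (log2 fold change -1.80, standard error 0.28, adjusted p = 6.08e-05 in edgeR) and 0.35-fold of that at 2 dpi (-1.50, standard error 0.27, adjusted p = 0.0003). Against sham the log2 fold change was -0.19 (standard error 0.27, 95% interval -0.72 to 0.34, adjusted p = 0.613). The rises at 2 and 14 dpi and the lower level at 60 dpi were called under every alternative run, among them TMM factors, positive-control factors alone and each sample left out in turn. With 1 sample left out the adjusted p in edgeR was up to 0.00956. For the rises at 2 and 14 dpi it was 0.0214 and 0.0292 with positive-control factors alone. Without the 3 samples high in neutrophil markers it was 0.0136 and 0.00321. In raw counts, too, the 60 dpi samples (103, 159 and 194) lay below all samples at 2 dpi (283 to 689) and 14 dpi (280 to 631), although the background of their run was higher. The sums of monocyte markers given above were higher than in sham in all samples at 2 dpi and at 60 dpi, and overlapped with sham at 14 dpi. The part of monocytes in the Ptgs2 level was not tested.

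Of the 4 genes, none was called between 14 and 2 dpi, where 42.3% of tested genes were, 39.6% higher and 2.79% lower (1, Cybb, at an unadjusted p under 0.05 in edgeR, and 1, Cybb, with DESeq2 and the same factors). Between 60 and 14 dpi 3 were called, where 44% of tested genes were (21.7% higher, 22.3% lower), Cybb and Nos2 higher and Ptgs2 lower. Between 60 and 2 dpi all 4 were, where 56.3% of tested genes were, 46.2% higher and 10% lower. Of the 4, Ncf4 alone had groups that overlapped there, and 61.8% of tested genes had groups that did not. The plot of changes under 3 scalings shows which of the calls against sham depend on the factors.

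**Figure D3:**
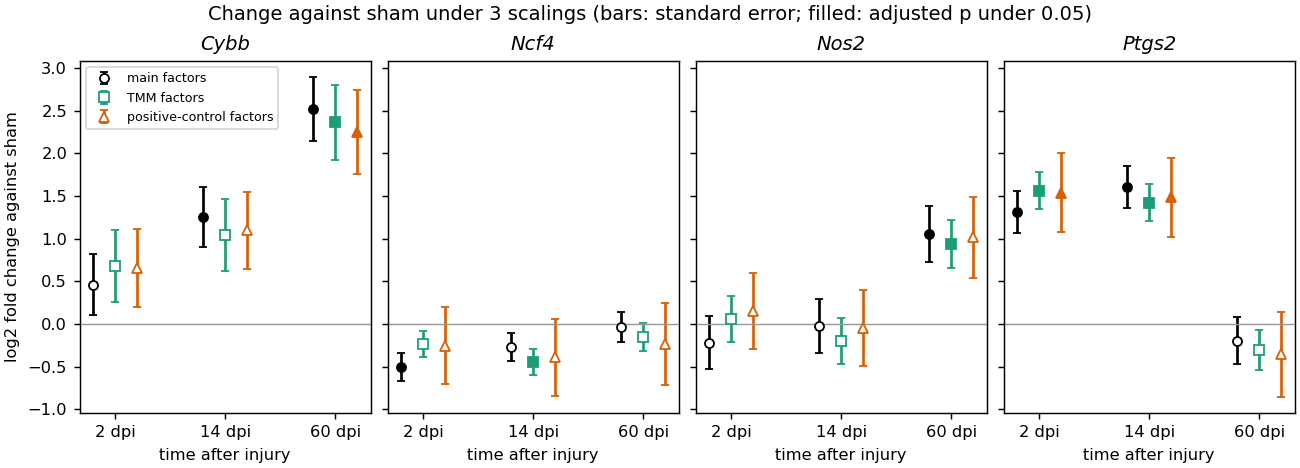
Log2 fold change against sham (vertical axis) of each gene at 2, 14 and 60 dpi (horizontal axis) with the main factors, TMM factors and positive-control factors alone, with standard errors. Filled points passed an adjusted p of 0.05 in edgeR. Ptgs2 was called at 2 and 14 dpi and Cybb at 60 dpi under all 3, Ncf4 at 2 dpi only with the main factors, and Nos2 at 60 dpi with the main and TMM factors.

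The genes most like Ptgs2 were Mapkapk2, a kinase downstream of p38 (Pearson r = 0.89), Tlr2, a receptor for bacterial lipoproteins (0.88), and Il1rn, the interleukin 1 receptor antagonist (0.87), and over the first run alone 0.90, 0.93 and 0.86. Tlr2 averaged 1034 ± 214 normalized counts at 14 dpi, against 375 ± 54.8 in sham (SD, n = 4 each; log2 fold change 1.47, standard error 0.19, adjusted p = 1.81e-05 in edgeR), and 425 ± 70.2 at 60 dpi (SD, n = 3; adjusted p = 0.508). Between Ptgs2 and Cybb the correlation was 0.74 over the first run and -0.02 over all 15 samples.

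The other genes of prostaglandin and leukotriene signaling on the panel were receptors, apart from the phospholipase Pla2g2e, which did not reach the background filter. Of 3 tested, 1 fell and none rose at 2 dpi, where 28.1% of tested genes fell, while 2 rose and none fell at 14 and at 60 dpi, where 21.4% and 25.3% rose. The median log2 fold changes of the 3 were -0.26, 0.58 and 0.80, beside -0.30, 0.08 and 0.12 over all tested genes. Ptger4, a receptor for prostaglandin E2, was at 89.2 ± 12 normalized counts at 14 dpi, against 45.5 ± 16.0 in sham (SD, n = 4 each; log2 fold change 1, adjusted p = 0.00794 in edgeR), while its log2 difference at 2 dpi was 0.07 (adjusted p = 0.854). Ptafr, the receptor of platelet-activating factor, fell at 2 dpi (-0.52, adjusted p = 0.0491) and rose at 14 dpi (0.58, 0.0385). Ltb4r1, a leukotriene B4 receptor, rose at 60 dpi to 172 ± 33.1 (SD, n = 3), against 68.8 ± 29.9 in sham (SD, n = 4; log2 fold change 1.37, adjusted p = 0.00236).

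Signals known to induce Nos2, Ptgs2 and Cybb in macrophages moved with the time points as follows. Of 5 listed and tested inducing cytokines, 2 rose at 2 dpi (Tnf and Il1b), 4 at 14 dpi and 1 at 60 dpi (Il1b). None fell against sham, and 7.24%, 21.4% and 25.3% of all tested genes rose at these times. The median log2 fold changes of the 5 were 0.92, 1 and 0.15, beside -0.30, 0.08 and 0.12 over all tested genes. Il1b averaged 917 ± 110.4 normalized counts at 14 dpi, against 250.1 ± 115 in sham (SD, n = 4 each; log2 fold change 1.88, standard error 0.33, adjusted p = 0.000576 in edgeR). Ifng was on the panel and did not reach the background filter. Against 14 dpi, 3 of the 5 were lower at 60 dpi (Tnf, Il1a and Il1b) and none was higher, where 22.3% of tested genes were lower. In that comparison Ptgs2 was lower, while Cybb and Nos2 were higher.

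Of 9 transcription factors listed as acting on these genes, 5 rose and none fell at 14 dpi, where 21.4% of all tested genes rose. Their median log2 fold change was 0.75, beside 0.08 over all tested genes. Irf1, which the interferon-γ response requires for Nos2, was at 324 ± 53.5 normalized counts at 14 dpi, against 157 ± 34.9 in sham (SD, n = 4 each; log2 fold change 1.03, adjusted p = 0.000204 in edgeR), and Relb, an NF-κB subunit, changed by 1 on the log2 scale (adjusted p = 0.00164). Between 60 and 14 dpi 6 of the 9 were lower and none higher, where 22.3% of all tested genes were lower, with a median of -1.18 beside 0.02. Cebpb, which encodes C/EBPβ, was at 498 ± 107 at 60 dpi (SD, n = 3), against 1475 ± 186 at 14 dpi (SD, n = 4; log2 fold change -1.57, adjusted p = 2.47e-05). At 2 dpi 2 of the 9 fell (Nfkb1 and Irf8) and none rose, a share of lower calls below the 28.1% of all tested genes. Of 13 receptors and adaptors of these signals, 1 rose at 2 dpi (Tlr2) and 5 fell, among them both chains of the interferon-γ receptor, 2 rose and none fell at 14 dpi (Tlr2 and Cd14), and 2 rose and 1 fell at 60 dpi. At 2 dpi 7.24% of all tested genes rose and 28.1% fell, and the median log2 fold change was -0.43 over the 13 and -0.30 over all tested genes. At 14 and 60 dpi 21.4% and 25.3% of all tested genes rose, and 4.18% and 11.1% fell.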

How the data were processed

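The authors deposited raw nCounter values, treated here as estimated counts because their table also has header lines that are not whole numbers, although each probe value is whole. The authors also deposited a normalized signal table made, by the methods, with NanoStringNorm. Tested on the values, it equals the raw count less the negative-control mean of the sample, times a factor bringing the housekeeping sum to 9027, with all 8205 values within 0.001. Each sample was scaled here by a positive-control factor (geometric mean of 6 controls) times a housekeeping factor (median ratio over 14 genes after subtraction of the negative-control mean). The 359 genes that exceeded background in 3 or more samples entered 1 fit over 15 samples with a mean per group. The quasi-likelihood test was that of edgeR 4.0.16, run robustly in R 4.3.3, where the methods used the negative binomial model of NanoStringDiff. Run was not a covariate, since it holds 60 dpi alone. Standard errors are the absolute log2 fold change divided by the square root of the F statistic of the test. Intervals are 1.96 such standard errors to each side, a normal value, whereas the p-values come from the F test. The p-values were adjusted by Benjamini-Hochberg over 359 genes in each of 6 comparisons. Alternatives were TMM, housekeeping or positive-control factors alone, DESeq2 1.42.0, subtraction of the negative-control mean, 2 other filters, smaller fits, limma 3.58.1 on log2 of the deposited signal plus 1, and leaving out each sample. Added after seeing the data were a limit without NEG_B, negative-control factors for Nos2, and leaving out 3 samples high in S100a8, S100a9, Camp and Ltf. Members and lists were chosen with earlier results of these data known. Named genes are the 4 members, genes of the lists and markers by count, range and median, with values for some of those called in a comparison described, and the 3 tested genes most correlated with each member over log2 (normalized count + 1). Genes of the lists given with values were picked after the values were seen. Some genes that this rule names are not reported here. Counts are of molecules on a cartridge, and the total per sample limits precision for genes near background, as Cybb in sham. Promoters and positions are from RefSeq on GRCm38.p6.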

Additional observations from a re-analysis of the deposited data

Results flagged for a closer look

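The change from sham of each gene was compared between time points in the edgeR fit, and 7 such differences passed, all of them with 60 dpi. On the log2 scale Cybb differed by 1.27 between 60 and 14 dpi and by 2.06 between 60 and 2 dpi, and Nos2 by 1.08 and 1.27. Ptgs2 differed by -1.80 between 60 and 14 dpi and by -1.50 between 60 and 2 dpi. Ncf4 differed by 0.46 between 60 and 2 dpi, where the median of all tested genes was 0.49. These are the same values as the direct comparisons between time points given above, into which the sham level does not enter, and the run cannot be told apart from 60 dpi.

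Outside the endogenous genes, the negative control NEG_B reached 72 raw counts at 60 dpi, against 7 to 12 in the samples of the first run. No sample of the 4 genes stood outside its group of 4 by Dixon's criterion, and groups of 3 were not tested.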

How the results depend on the processing

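Of 303 values of the 4 genes under alternatives other than leaving out a sample, 269 kept their direction and their side of the threshold, 18 lost a call, 4 gained one and 12 changed sign, and with 1 sample left out the counts were 158, 13, 1 and 8 of 180. None of the calls of Ptgs2, nor that of Cybb at 60 dpi against sham or against 2 dpi, was lost under any alternative run. The causes of the changes below were not tested. No paired analysis was run, since by the methods the brains came from separate groups of mice. Cybb was close to background in sham, where raw counts were 26 to 175 against a limit of 26.1 to 34.

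With TMM factors, the log2 difference was -0.24 for Ncf4 at 2 dpi against sham (call lost), 0.062 for Nos2 at 2 dpi against sham (sign changed), 1.04 for Cybb at 14 dpi against sham (call lost), -0.45 for Ncf4 at 14 dpi against sham (call gained), -0.21 for Ncf4 at 14 dpi against 2 dpi (sign changed), -0.26 for Nos2 at 14 dpi against 2 dpi (sign changed), -0.14 for Ptgs2 at 14 dpi against 2 dpi (sign changed), 0.082 for Ncf4 at 60 dpi against 2 dpi (call lost). With TMM factors, the number of genes called was 47 higher at 2 dpi against sham, 43 lower at 2 dpi against sham, 65 lower at 14 dpi against sham, 67 lower at 60 dpi against sham, 43 higher at 14 dpi against 2 dpi, 22 lower at 14 dpi against 2 dpi, 83 higher at 60 dpi against 2 dpi, 70 lower at 60 dpi against 2 dpi. With positive-control factors alone, the log2 difference was -0.25 for Ncf4 at 2 dpi against sham (call lost), 0.15 for Nos2 at 2 dpi against sham (sign changed), 1.09 for Cybb at 14 dpi against sham (call lost), 1.01 for Nos2 at 60 dpi against sham (call lost), -0.14 for Ncf4 at 14 dpi against 2 dpi (sign changed), -0.20 for Nos2 at 14 dpi against 2 dpi (sign changed), -0.057 for Ptgs2 at 14 dpi against 2 dpi (sign changed), 1.15 for Cybb at 60 dpi against 14 dpi (call lost), 1.07 for Nos2 at 60 dpi against 14 dpi (call lost), 0.018 for Ncf4 at 60 dpi against 2 dpi (call lost), 0.86 for Nos2 at 60 dpi against 2 dpi (call lost). With positive-control factors alone, the number of genes called was 1 lower at 2 dpi against sham, 20 higher at 14 dpi against sham, 0 lower at 14 dpi against sham, 48 higher at 60 dpi against sham, 18 lower at 60 dpi against sham, 7 higher at 14 dpi against 2 dpi, 36 higher at 60 dpi against 14 dpi, 44 lower at 60 dpi against 14 dpi, 29 higher at 60 dpi against 2 dpi. Where DESeq2 set its own size factors, the log2 difference was -0.20 for Ncf4 at 2 dpi against sham (call lost), 0.10 for Nos2 at 2 dpi against sham (sign changed), -0.44 for Ncf4 at 14 dpi against sham (call gained), -0.24 for Ncf4 at 14 dpi against 2 dpi (sign changed), -0.27 for Nos2 at 14 dpi against 2 dpi (sign changed), -0.17 for Ptgs2 at 14 dpi against 2 dpi (sign changed), 0.029 for Ncf4 at 60 dpi against 2 dpi (call lost). Where DESeq2 set its own size factors, the number of genes called was 57 higher at 2 dpi against sham, 39 lower at 2 dpi against sham, 69 lower at 14 dpi against sham, 77 lower at 60 dpi against sham, 44 higher at 14 dpi against 2 dpi, 28 lower at 14 dpi against 2 dpi, 72 higher at 60 dpi against 2 dpi, 77 lower at 60 dpi against 2 dpi. Without the 3 samples highest in neutrophil markers, the log2 difference was 1.06 for Nos2 at 60 dpi against sham (call lost), 1.18 for Cybb at 14 dpi against 2 dpi (call gained), 0.39 for Ncf4 at 60 dpi against 2 dpi (call lost). Without the 3 samples highest in neutrophil markers, the number of genes called was 16 higher at 2 dpi against sham, 6 lower at 14 dpi against 2 dpi. Without the background filter, the number of genes called was 9 lower at 14 dpi against sham. In fits of the 2 groups compared, the number of genes called was 8 lower at 14 dpi against sham. With negative-control factors, the log2 difference was 0.44 for Nos2 at 60 dpi against sham (call lost), 0.45 for Nos2 at 60 dpi against 14 dpi (call lost), 0.20 for Nos2 at 60 dpi against 2 dpi (call lost). In DESeq2 with the main factors, the log2 difference was 0.79 for Cybb at 14 dpi against 2 dpi (call gained). After subtraction of the negative-control mean, the log2 difference was 0.40 for Ncf4 at 60 dpi against 2 dpi (call lost). After subtraction of the negative-control mean, the number of genes called was 57 lower at 60 dpi against 2 dpi.

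With 1 sample left out in turn, the range was 0.56 to 1.18 for Cybb at 14 dpi against 2 dpi, 1.05 to 1.66 for Cybb at 14 dpi against sham, -0.62 to -0.40 for Ncf4 at 2 dpi against sham, 0.27 to 0.61 for Ncf4 at 60 dpi against 2 dpi, -0.23 to 0.11 for Ncf4 at 60 dpi against sham, -0.0059 to 0.35 for Nos2 at 14 dpi against 2 dpi, -0.26 to 0.22 for Nos2 at 14 dpi against sham, -0.45 to 0.026 for Nos2 at 2 dpi against sham, 0.92 to 1.28 for Nos2 at 60 dpi against 14 dpi, 0.83 to 1.30 for Nos2 at 60 dpi against sham, 15 to 36 for genes called higher at 2 dpi against sham, 6 to 10 for genes called lower at 14 dpi against 2 dpi, 8 to 25 for genes called lower at 14 dpi against sham, 60 to 117 for genes called lower at 2 dpi against sham.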
